A study of Mus musculus with 13 samples.

Results

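The Pgr locus was defined as the gene body of Pgr plus 100 kb on each side, chr9:8799833-9068611 in mm10, and its members were chosen by the presence of an ESR1 ChIP-seq peak inside that window in any library. The window is 268779 bp long and Pgr itself (ENSMUSG00000031870.16 in GENCODE vM21) runs over 68779 bp on the plus strand, chr9:8899833-8968611. The 12 peak lists placed 119 of their 686823 peaks in the window. Chaining peaks that overlapped by at least 1 bp gave 43 sites, out of 228284 merged regions in the genome. Sites are named by the distance of their strongest summit from the start of Pgr. At the edges of the window, the first site inside lay at -88.5 kb and was found in 1 library, and the nearest site outside lay at -111.4 kb, also in 1 library. On the other edge the last site inside lay at +160.8 kb and was found in 5 libraries, and the next one outside, at +183.6 kb, was found in 1.

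ESR1, the estrogen receptor-α, was immunoprecipitated from primary skeletal muscle fibroblasts of Aromhum mice, which carry a human aromatase gene and so make estrogen in their own tissues. The fibroblasts were grown from the lower abdominal muscle, the site of inguinal hernia in these animals. All 4 treatments share this genotype, and no library came from mice without the transgene. Cells were first given fulvestrant at 100 nM or its carrier DMSO, and then estrogen (E2) at 10 nM or its carrier ethanol for 1 hour, so that fulvestrant was present before E2 and during that hour. This makes vehicle, E2, E2 plus fulvestrant and fulvestrant alone, with 3 libraries each. The labels do not say whether replicates came from separate animals or cultures, so spreads and p-values below describe the spread between these libraries and may be technical. The age of the animals is not given in the labels.

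Pgr encodes the progesterone receptor, a nuclear receptor that binds progesterone and then acts as a transcription factor. It is among the best known genes switched on by estrogen in breast and uterus, where ESR1 acts through elements that can lie far from the promoter. ESR1 binds DNA as a dimer, and its preferred sequence, the estrogen response element (ERE), is a palindrome of a pair of arms set apart by a short spacer. Fulvestrant is a pure ESR1 antagonist that competes with E2 and lowers the amount of receptor over time. Pgr and Greb1 were the positive control loci of the study's ChIP-qPCR, and Pgr belongs to its set of E2-responsive genes, so the locus was not chosen independently of these samples.

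Of the 43 sites, 13 had a peak in at least 3 libraries and are called recurrent here, 6 had a peak in 2 libraries and 24 in 1 library. The ERE was searched up to 100 bp from each summit as GGTCA, any 3 bases and TGACC, allowing 1 mismatch in the fixed letters, a pattern that reads the same on both strands. It was found at 4 of the recurrent sites and at none of the others. The sequences below are shown because these 4 sites include the 2 strongest of the locus. They are the plus strand of GRCm38.p6, the same assembly as mm10, with the ERE in capitals.
+38.0 kb, chr9:8937790-8937905: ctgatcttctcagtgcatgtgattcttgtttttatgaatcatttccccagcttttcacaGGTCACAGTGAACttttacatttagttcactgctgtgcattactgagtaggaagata
+51.5 kb, chr9:8951276-8951376: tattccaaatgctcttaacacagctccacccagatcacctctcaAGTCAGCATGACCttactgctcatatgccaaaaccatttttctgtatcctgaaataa
+70.7 kb, chr9:8970465-8970565: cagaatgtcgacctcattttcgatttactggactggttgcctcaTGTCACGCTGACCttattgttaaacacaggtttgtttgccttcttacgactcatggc
+73.1 kb, chr9:8972927-8972955: agagctggGGTGATCGTGACCtccttagt

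Each of the 4 elements departs from the consensus at a different position or by a different base. Counted from 1 at the 5′ end of the 13-base element, the change is C12A at +38.0 kb, G1A at +51.5 kb, G1T at +70.7 kb and C4G at +73.1 kb. The centre of the element lay 1 bp from the summit at +70.7 kb and -1 bp at +51.5 kb. At +73.1 kb it lay -26 bp from the summit, and at +38.0 kb 55 bp. The share of all merged regions with such a match was 1.35%, and it was 3.11% among regions found in at least 3 libraries. No site of the window held an ERE without a mismatch, against 0.177% of all regions and 0.582% of regions found in at least 3 libraries. With 2 mismatches allowed, the count became 6 of the 13 recurrent sites, beside 13.3% of regions found in at least 3 libraries, and the sites added lay at -62.0 kb (G2A and T3A) and +39.3 kb (T3C and A11C).

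A single arm of the element (AGGTCA on either strand) occurred at 6 of the 13 recurrent sites, and these 6 include the 4 with an ERE, whose sequence can contain the arm. Its share of regions found in at least 3 libraries was 17.0%. The AP-1 site (TGACTCA or TGAGTCA, each the reverse complement of the other), bound by Fos and Jun family dimers, occurred at 2 recurrent sites, both in introns of Arhgap42, against 6.21% of such regions. Neither of these sites held an ERE, and both are shown with the AP-1 letters in capitals for contrast with the ERE sites.
+134.7 kb, chr9:9034549-9034609: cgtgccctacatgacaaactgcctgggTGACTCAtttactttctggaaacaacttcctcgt
+147.0 kb, chr9:9046762-9046822: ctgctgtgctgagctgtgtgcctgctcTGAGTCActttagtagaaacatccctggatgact

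A PLAG-type site (GAGGC or GGGGC followed after 6 to 8 bases by GGG, either strand) occurred at 0 of the 13 recurrent sites and at 1 of the 43. Its share was 10.9% of regions found in at least 3 libraries and 7.63% of all regions, so 13 sites are too few to show a lack. The Pgr promoter of the RefSeq table, chr9:8899583-8899882 in GRCm38.p6, held 0 EREs with at most 1 mismatch, 0 single arms and 0 AP-1 sites. Of the 32851 promoters in that table, 0.877% held an ERE by the same rule. These matches describe the letters present and were not tested against binding.

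A pair of libraries stood apart from the rest and touches every result below. E2 replicate 1 had the longest list (104571 peaks), 59.3% of it in repeat-masked sequence, at a relative depth of 39.1% of the median library. Fulvestrant replicate 2 had 80754 peaks, 27.8% of them repeat-masked, at a relative depth of 75.8%. The other 10 lists held 34293 to 68971 peaks, 5.53% to 7.76% of them repeat-masked, at relative depths of 92.0% to 106%. Depth was read from the peak files, since their fold and p-value columns return whole numbers of fragments under the peak caller's Poisson model (all 119 peaks of the window, within 0.002 on the -log10 p scale for values up to 100). Results are therefore given with all 12 libraries and again without these 2, a choice made after the lists were seen.

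Libraries given E2 held more peaks around Pgr than libraries without it, whether or not fulvestrant was present. The vehicle libraries held 5, 3 and 5 peaks in the window, and the fulvestrant libraries 5, 2 and 7. With E2 there were 16, 13 and 17 peaks, and with E2 plus fulvestrant 14, 14 and 18. The 6 libraries given E2 did not overlap the 6 without it. Their means were 15.3 ± 1.97 and 4.50 ± 1.76 peaks (SD, n = 6 each), and of 21870 windows built the same way around protein-coding genes, 44 (0.201%) showed all libraries given E2 above all others while 0 showed the reverse. Since peaks are what chose the members, this order is a description and carries no test.

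**Figure D1:**
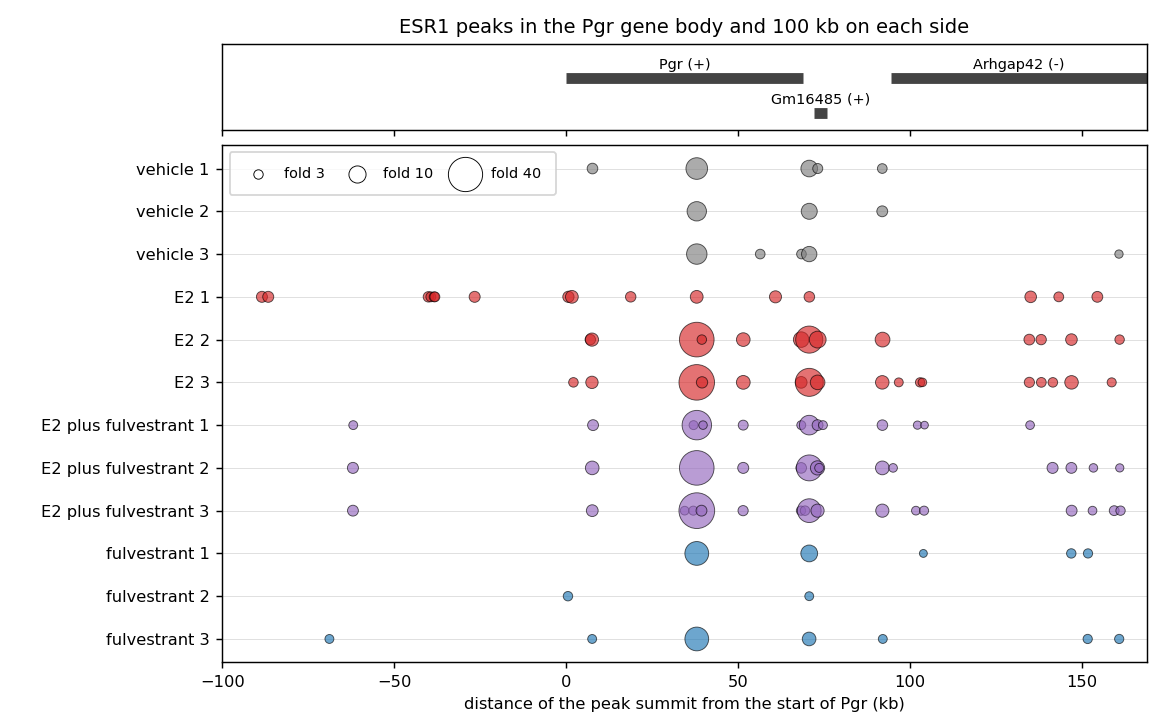
Position of each ESR1 peak in the Pgr window by library, with the distance of the summit from the start of Pgr in kb on the horizontal axis, the 12 libraries on the vertical axis and dot area proportional to fold over local background. Gene bodies with their strand are drawn above, and dots at +38.0 kb and +70.7 kb are the largest in 10 of the libraries, with E2 replicate 1 and fulvestrant replicate 2 as the exceptions.

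The ratio of mean peak number with E2 to that without was 3.41 for Pgr, and the median over the 13964 gene windows with a mean of at least 5 peaks was 1.13. After dividing by the mean over protein-coding genes in each library, the ratio was 2.73 for Pgr and 0.981 for the median gene, and 11 gene windows lay above Pgr. Long lists can hold more peaks in any window. As a share of its list, the window held 0.976, 0.875 and 1.26 peaks per 10000 with vehicle and 1.18, 0.248 and 1.53 with fulvestrant. It held 1.53, 2.13 and 2.46 per 10000 with E2 and 3.42, 2.75 and 2.72 with E2 plus fulvestrant. On this scale E2 replicate 1 fell level with the highest fulvestrant library.

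The 16 peaks of E2 replicate 1 were unlike those of its fellow replicates. In that library 10 of the 16 lay in repeat-masked sequence, 11 were at sites that no other library shared, and 3 fell on a recurrent site. E2 replicates 2 and 3 each had a peak at 11 of the 13 recurrent sites, and the E2 plus fulvestrant libraries at 11, 10 and 12. The vehicle libraries had 5, 3 and 4, and the fulvestrant libraries 4, 1 and 5. Most recurrent sites became recurrent only through libraries given E2, so this difference by E2 was favoured in advance. With repeat-masked peaks removed, the libraries given E2 and those without it overlapped, at means of 12.7 and 4.00 peaks. Without E2 replicate 1 and fulvestrant replicate 2 the means were 15.2 ± 2.17 and 5.0 ± 1.41 peaks (SD, n = 5 each), and the groups did not overlap.

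**Figure D2:**
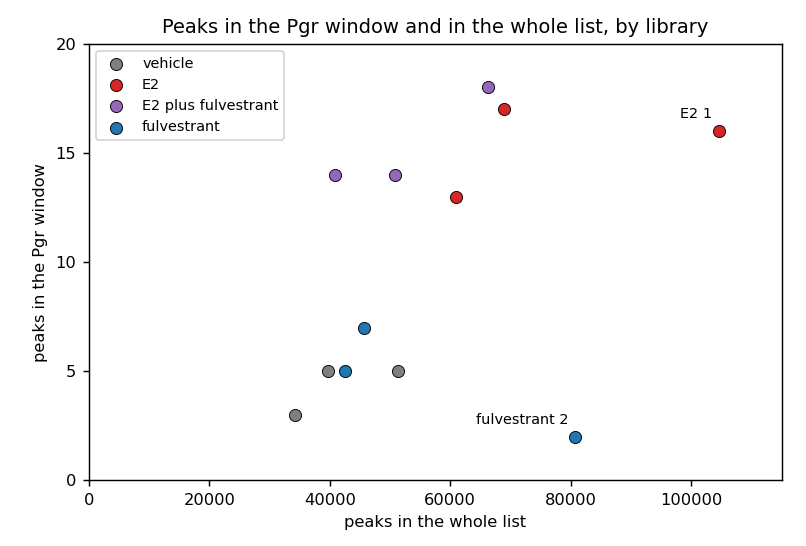
Number of peaks in the Pgr window (vertical axis) against the length of the whole list in peaks (horizontal axis), 1 point per library, coloured by treatment. The 6 libraries given E2 lie at 13 to 18 peaks and the 6 without it at 2 to 7, and fulvestrant replicate 2 combines a long list of 80754 peaks with the lowest number in the window.

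By position, 11 sites lay in Pgr (5 of them recurrent), 17 in Arhgap42 (4 recurrent), 3 in Gm16485 (1 recurrent), 9 in intergenic sequence upstream of Pgr (1 recurrent) and 3 in intergenic sequence downstream (2 recurrent). Arhgap42 (ENSMUSG00000050730.17, chr9:8994329-9239101, minus strand) encodes a GTPase-activating protein. Gm16485 (ENSMUSG00000078117.2, chr9:8971791-8975773, plus strand) is the annotated gene that starts nearest to the 3′ end of Pgr. Peaks at 30 of the 43 sites came from libraries given E2 alone, as at 48.6% of all merged regions, and at 3 sites from libraries without E2 alone, as at 21% of regions (11 of the 30 were in E2 replicate 1 alone). Of the 13 recurrent sites, 12 were found in more libraries given E2 than not, beside 50.9% of all regions found in at least 3 libraries. In fewer were 0, beside 18.7%, and the site at +70.7 kb was found in all 12 libraries. All but those at +38.0, +70.7 and +91.9 kb reached 3 libraries only through those given E2. An excess with E2 was thus favoured in advance, and these counts support nothing about the locus. Judged at the strongest summit, none of the recurrent sites was repeat-masked, against 12 of all 43. Single peaks at recurrent sites were repeat-masked, however. These were at +91.9 kb in vehicle replicates 1 and 2 and E2 replicate 3, and at +134.7 kb in E2 replicate 1 and E2 plus fulvestrant replicate 1. At +38.0 kb they were weaker side peaks in E2 plus fulvestrant replicates 1 and 3.

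The start of Pgr itself held no recurrent site. At +0.6 kb, in a coding exon, a peak was called in E2 replicate 1 and fulvestrant replicate 2, the 2 libraries that stood apart, and in no other. Its strongest summit lay 13 bp from a further annotated transcript start of Pgr, inside the gene body. The promoter searched for motifs above ended short of this site. At +1.7 kb, also in a coding exon, the peaks came from E2 replicates 1 and 3. The recurrent site nearest to the start was the intronic one at +7.6 kb.

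The strongest site of the locus lay in an intron of Pgr at +38.0 kb (chr9:8936646-8938693), and its peaks were taller with E2 than without in the libraries of ordinary depth. The number of ESR1 fragments stacked over its summit was 111, 88 and 91 with vehicle. With E2 it was 21, 274 and 306, and with E2 plus fulvestrant 184, 259 and 268. With fulvestrant alone it was 136 and 138 in replicates 1 and 3, and replicate 2 had no peak there. Apart from E2 replicate 1, all libraries given E2 were above all libraries without it. Without that replicate and fulvestrant replicate 2 the means were 258 ± 45.1 and 113 ± 23.8 fragments (SD, n = 5 each), a ratio of 2.28.

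Fold over local background followed the same order, with 14.3 ± 1.59 for vehicle (SD, n = 3) and 38.0 ± 7.36 for E2 plus fulvestrant (SD, n = 3). E2 replicates 2 and 3 reached 40.9 and 43.1, and E2 replicate 1 reached 5.59. Fulvestrant replicates 1 and 3 were at 19.3 and 19.2. Ordered by mean log10 rank over all 12 libraries, the site was 31st of the merged regions, and 18th without the 2 libraries. It ranked between 8 and 48 within the 10 ordinary lists, where 1 is the strongest peak, and at 21929.5 in E2 replicate 1. The summits of the 11 libraries lay within -14 to 22 bp of that of the strongest, so the same position was occupied under all 4 treatments.

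Between single treatments at +38.0 kb, E2 replicates 2 and 3 averaged 3.0 times the vehicle fragments, and E2 plus fulvestrant averaged 2.45 times. E2 over E2 plus fulvestrant was 1.22 by fragments, with no overlap, and 1.11 by fold, where the groups overlapped. Fulvestrant replicates 1 and 3 averaged 1.42 times vehicle by fragments and 1.35 times by fold, with no overlap on either scale. Every comparison of E2 alone or fulvestrant alone here rests on 2 libraries. Relative depth in the 10 libraries compared ranged from 92.0% to 106%.

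The second site lay at +70.7 kb (chr9:8969594-8971426), in intergenic sequence past the 3′ end of Pgr and 1277 bp from the start of Gm16485. It had a peak in all 12 libraries. Fragments at the summit were 78, 76 and 65 with vehicle and 85, 17 and 67 with fulvestrant. With E2 they were 12, 217 and 226, and with E2 plus fulvestrant 112, 163 and 151. Apart from the 2 unusual libraries, E2 alone was highest, E2 plus fulvestrant intermediate, and fulvestrant alone overlapped vehicle. Without those libraries the means were 174 ± 47.6 with E2 given and 74.2 ± 8.23 without it (SD, n = 5 each), a ratio of 2.35.

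E2 replicates 2 and 3 averaged 3.04 times vehicle at +70.7 kb, and E2 plus fulvestrant 1.95 times. E2 over E2 plus fulvestrant was 1.56 by fragments and 1.41 by fold, without overlap on either scale. Fulvestrant over vehicle was 1.04 by fragments and 0.915 by fold, with overlap. By rank the vehicle libraries stood at 242, 152 and 215, all better than fulvestrant at 258, 48479 and 740. The site was 190th of all merged regions, and 90th without the 2 libraries.

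**Figure D3:**
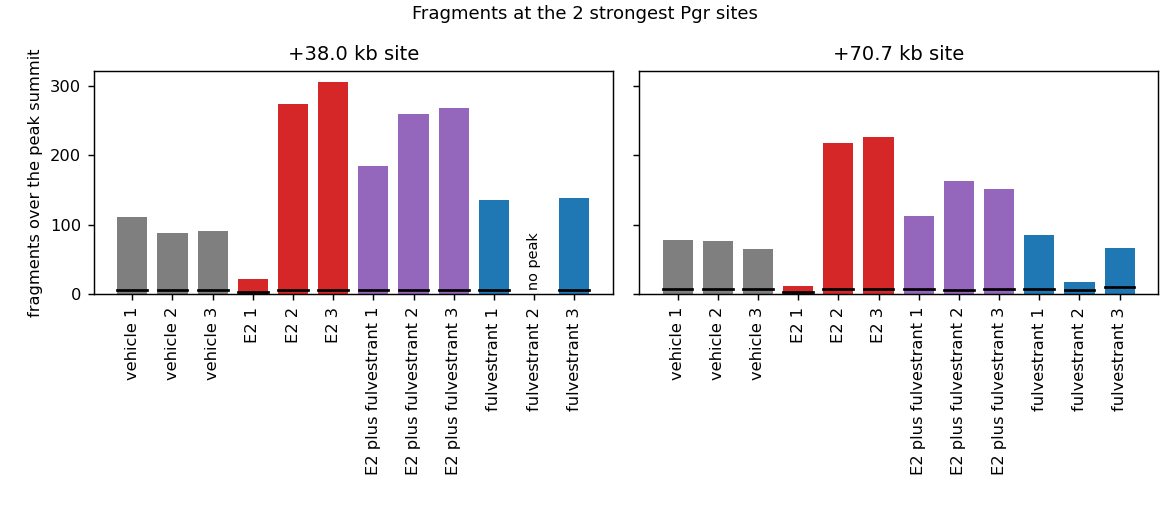
ESR1 fragments over the peak summit at the +38.0 kb and +70.7 kb sites, 1 bar per library, with a black line for the local background the peak caller assumed and "no peak" where a list has none. At +38.0 kb the 5 libraries given E2 other than replicate 1 of E2 stand at 184 to 306 fragments and the vehicle libraries at 88 to 111.

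The remaining ERE sites were weaker and were found mainly with E2. Both met the 3-library filter only through libraries given E2, so where they were found is no finding. The intronic site at +51.5 kb (chr9:8951118-8951637) had a peak in 5 libraries, each of them given E2. Its fragments were 28 and 30 in E2 replicates 2 and 3 and 14, 17 and 14 with E2 plus fulvestrant, a ratio of 1.93 with no overlap. The site at +73.1 kb (chr9:8972152-8973175), in a UTR of Gm16485, held 43 and 34 fragments in E2 replicates 2 and 3 and 17, 29 and 24 with E2 plus fulvestrant. Outside the libraries given E2, its one peak was in vehicle replicate 1, with 15 fragments. E2 over E2 plus fulvestrant was 1.65 there by fragments, without overlap. By rank these groups overlapped, at 3330 and 9735 for E2 against 14079.5, 4534.5 and 9162 for E2 plus fulvestrant. For scale, E2 replicates 2 and 3 ranked above all E2 plus fulvestrant libraries at 15.0% of tested regions.

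Of the recurrent sites without an ERE inside Pgr, the one at +7.6 kb (chr9:8906742-8907828) was found in 7 libraries. Its strongest peak in each held 26 and 24 fragments in E2 replicates 2 and 3 and 17, 27 and 19 with E2 plus fulvestrant, with 17 in vehicle replicate 1 and 13 in fulvestrant replicate 3. E2 and E2 plus fulvestrant overlapped at this site. The intronic site at +39.3 kb (chr9:8938790-8939629), next to the strongest one, was found in 2 E2 and 2 E2 plus fulvestrant libraries at 10 to 20 fragments. The site at +68.3 kb (chr9:8967873-8968756), in the 3′ UTR of Pgr, held 42 and 26 fragments in E2 replicates 2 and 3, 13 to 16 with E2 plus fulvestrant, and 13 in vehicle replicate 3. Its ratio of E2 to E2 plus fulvestrant was 2.31, without overlap.

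Outside Pgr, the site at -62.0 kb (chr9:8837446-8838098) is the one recurrent site upstream of the gene, and it was called in all 3 E2 plus fulvestrant libraries, at 11, 17 and 16 fragments, and in no other. Its peak in replicate 1 had a -log10 q of 1.22, so q was above 0.05. With only peaks of q at most 0.05, the site no longer reached 3 libraries. The intergenic site at +91.9 kb (chr9:8991376-8992357) was found in 8 libraries, at 29 to 33 fragments in E2 replicates 2 and 3, 16 to 27 with E2 plus fulvestrant, 14 and 18 in vehicle replicates 1 and 2, and 12 in fulvestrant replicate 3. It was thus present in 3 libraries without E2. At the ERE sites that number was 0 at +51.5 kb, 1 at +73.1 kb, 5 at +38.0 kb and 6 at +70.7 kb. At the recurrent sites without an ERE it ranged from 0 to 3, so presence without E2 did not divide the sites by ERE.

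The 4 recurrent sites in introns of Arhgap42 were low throughout. At +104.2 kb (chr9:9003211-9004079) 4 libraries had a peak, at 13 to 17 fragments. At +134.7 kb (chr9:9034114-9034959), one of the AP-1 sites, the peaks were in all 3 E2 libraries, at 11, 17 and 16 fragments, and in E2 plus fulvestrant replicate 1 at 14. The E2 replicate 1 peak there was repeat-masked, and its summit lay 398 bp from the strongest summit. The other AP-1 site, at +147.0 kb (chr9:9046450-9046986), held 20 and 29 fragments in E2 replicates 2 and 3, 17 and 16 in E2 plus fulvestrant replicates 2 and 3, and 14 in fulvestrant replicate 1. The site at +160.8 kb (chr9:9060413-9061062) was found in 5 libraries from all 4 treatments at 12 to 18 fragments. At such numbers a list with no peak and one with a weak peak may differ by a few fragments.

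**Figure D4:**
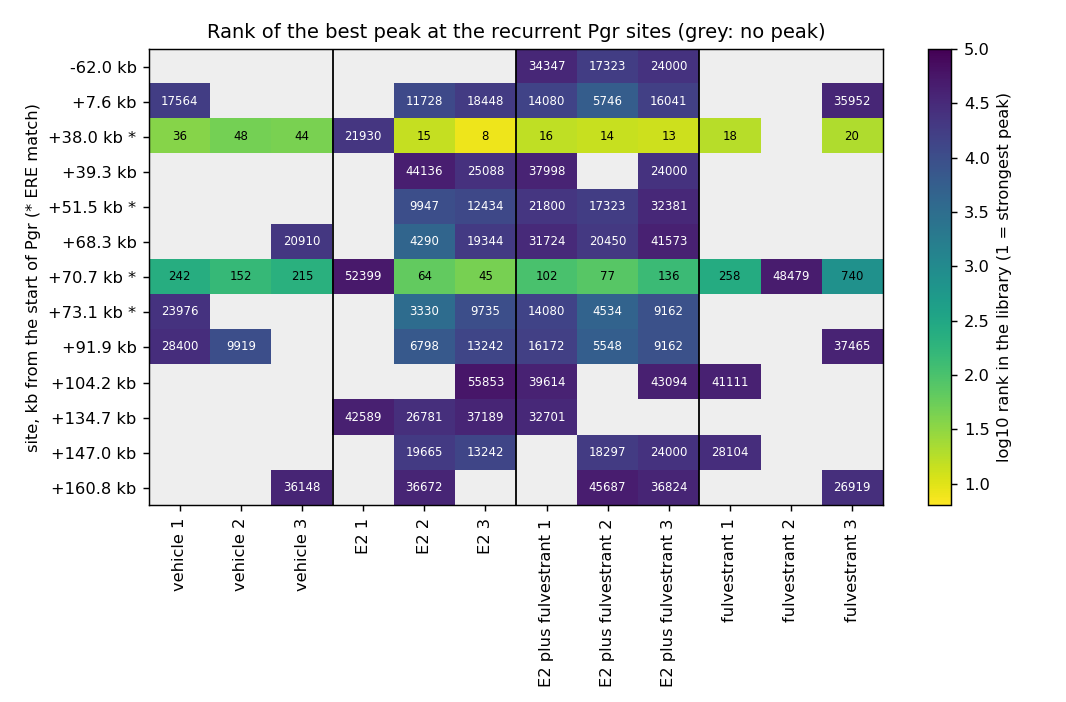
Rank of the best peak within its library (1 is the strongest) at the 13 recurrent sites, sorted by distance from the start of Pgr, for the 12 libraries, with grey cells where a library has no peak, colour on a log10 scale and an asterisk for an ERE match. The rows at +38.0 kb and +70.7 kb hold ranks of 8 to 740 in the 10 ordinary libraries, while the best rank at any other recurrent site is 3330.

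Ranks within each list were then compared between the 6 libraries given E2 and the 6 without it, over all 49642 regions with a peak in at least 3 libraries. A library without a peak is ranked last. A site that reached 3 libraries only through those given E2 was thus favoured in advance to rank better with E2, and its direction is no finding. In at least 3 libraries without E2 a peak was present at +38.0, +70.7 and +91.9 kb, and at these sites the difference in mean log10 rank, positive where the site ranked better with E2, was 0.43, 0.44 and 0.53. The vehicle peaks at +91.9 kb, in replicates 1 and 2, were repeat-masked. No site passed the exact two-sided permutation test after Benjamini-Hochberg adjustment, with a best adjusted p of 0.585, the smallest reached by any region of the genome. At an unadjusted p of at most 0.05 in the same exact permutation test, 4 of the 13 sites were called with the better rank under E2 (background 3.7% of regions) and 0 with the better rank without it (background 2.65%). Those 4, at +7.6, +51.5, +68.3 and +73.1 kb, all met the 3-library filter only through libraries given E2, so this count supports nothing about the locus. At 6 against 6 libraries the smallest p this test allows is 0.00216.

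The sites at +38.0 kb and +70.7 kb depended on single libraries in this comparison. At +38.0 kb the difference was 0.43 with all 12 libraries, -0.161 without fulvestrant replicate 2, whose missing peak is ranked last, 0.967 without E2 replicate 1 and 0.38 without both. At +70.7 kb it was 0.443 with all 12 libraries, 0.0683 without fulvestrant replicate 2, 0.914 without E2 replicate 1 and 0.539 without both. The adjusted p of the exact permutation test at both sites was 0.869 with 12 libraries and 0.167 without both libraries, which is the smallest any region reached with 5 against 5. At an unadjusted p of at most 0.05 by the exact permutation test without both libraries, 9 of the 13 sites were called with the better rank under E2 (background 12.1%) and 0 in the other direction (background 3.21%), and since most of these sites too met the filter only through libraries given E2, this count is likewise no support.

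Complete separation was counted as a description. With all 12 libraries, 0 of the 13 sites had all 6 libraries given E2 ranked above all 6 others, beside 0.0866% of tested regions, and 0 the reverse, beside 0.205%. Without the 2 libraries, 4 of the 13 sites were separated in that direction, beside 3.99% of regions, and 0 in the reverse, beside 0.766%. Leaving out E2 replicate 1 alone also gave 4 sites, beside 3.66% of regions. Those 4 sites were the ones at +38.0, +51.5, +70.7 and +73.1 kb, which are also the 4 sites with an ERE of at most 1 mismatch. The ERE match did not enter the separation, and the overlap of these sets was not tested. At +51.5 and +73.1 kb the 3-library filter was met only through libraries given E2, and at +38.0 and +70.7 kb by the libraries without E2 as well.

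Treatment by treatment, with all libraries, 1 site ranked above vehicle in every E2 library (+134.7 kb; background 2.67%) and 6 did so in every E2 plus fulvestrant library (background 8.17%). Those 6 sites were at -62.0, +7.6, +38.0, +51.5, +70.7 and +73.1 kb. No vehicle library had a peak at +134.7 kb, so the E2 libraries needed only a peak there to rank above vehicle. Vehicle ranked above E2 at 0 sites (background 3.15%) and above E2 plus fulvestrant at 0 (background 4.18%). Without E2 replicate 1, 8 of the 13 sites ranked above vehicle in both remaining E2 libraries, at a background of 25.1%. E2 alone ranked above E2 plus fulvestrant at 0 sites with all libraries (background 3.01%) and at 3 without replicate 1 (background 15.0%), namely +51.5, +68.3 and +70.7 kb. The reverse held at 1 site (-62.0 kb; background 3.38% with all libraries and 4.48% without replicate 1).

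Fulvestrant alone ranked above vehicle at 0 of the 13 sites with all libraries (background 3.13%) and at 1, +38.0 kb, without replicate 2 (background 8.72%). Vehicle ranked above fulvestrant at 1 site, +70.7 kb, with all libraries (background 2.65%) and without replicate 2 (background 4.45%). These comparisons share their control libraries, and the limit set by the 3-library filter holds for their counts too. With 3 libraries against 3, an exact permutation test cannot give a p below 0.1, so none was used.

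Greb1, a classic estrogen-induced gene and the other positive control locus, offers a reference. Its strongest gene-body site also held an ERE, and was 3658th of all regions against 31st for +38.0 kb. Fragments there were 28, 22 and 19 with vehicle, 72 and 52 in E2 replicates 2 and 3, and 42, 51 and 59 with E2 plus fulvestrant. Fulvestrant replicates 1 and 3 held 25 and 21, and the 2 unusual libraries had no peak. In these 10 libraries the Greb1 site had all libraries given E2 above the rest, as at +38.0 and +70.7 kb, at lower fragment numbers.

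The protein-coding genes whose normalised number of peaks across the 12 libraries was most like that of Pgr were Agtr2 (Pearson r = 0.923), Galnt17 (r = 0.92), Olfr429 (r = 0.897), Asb3 (r = 0.892) and Gad2 (r = 0.887), among 13961 compared. These values describe 12 libraries that share depth and list length and carry no p.

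Genes of the progesterone receptor pathway were looked at by the same rules without the 2 unusual libraries. Among 7 chaperone genes, whose products hold the receptor ready for hormone, 0 of 102 tested sites were separated with E2 higher and 1 (0.98%) with E2 lower, at Hsp90aa1, beside 0.766% of all regions in that direction. At 12 known progesterone receptor target genes it was 1 of 108, at Wnt4, and 0 in reverse. At 5 membrane progesterone receptor genes it was 0 of 48 in either direction. The shares with E2 higher in these 3 lists, 0%, 0.926% and 0%, were under the 3.99% of all regions. Fkbp5, with 28 tested sites, is counted in both the chaperone and the target list. No site of the 3 lists passed the adjusted exact permutation test, but no region of the genome did, so this says nothing about the lists.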

How the data were processed

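Trimmomatic 0.39, Picard 2.21.4 and build mm10 are named in the submitters' processing notes. By the methods of the study, reads were trimmed, and the authors aligned them with Bowtie2, removed duplicates and called peaks with MACS2 in each library. Whether an input control was used in peak calling is not given in the sources used here, and the input library was left out. The deposited lists give each peak's signal as a fold over local background (a ratio), its -log10 p-value and its -log10 q-value, and the deposited score column was not used. Per library, 5.64% to 26.1% of peaks had q above 0.05.

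Peaks of the 12 lists were merged where they overlapped by at least 1 bp. Peaks were ranked by q, ties by p, and libraries without a peak were put 1 past the longest list. Fragments were recovered from fold and p. Depth is the lowest background of every 20th peak per base of the shortest peak, relative to the median library. Repeat-masked means over 50% soft-masked bases in 200 around the summit. Group labels were permuted exactly (924 arrangements, or 252 for 5 against 5), with adjustment over all tested regions. The count model and batch correction of the study need reads and a batch label and were not used here. Genes named were Pgr, neighbours, Greb1, the 5 most similar genes and listed genes, and 1 gene list is not reported here. Members and lists were chosen with earlier results of these data known. Python 3.11.15, numpy 2.4.6, pandas 2.3.3 and scipy 1.17.1 were used, and scripts were tested on simulated data.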

Additional observations from a re-analysis of the deposited data

Results flagged for a closer look

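In 4 of 8 groups of 6 libraries examined at the leading sites and for peak numbers, 1 library lay far from the others by Dixon's ratio (the gap to its nearest neighbour over the whole range). Chance gives about 1 in 20 for a single group. These groups share libraries, and the libraries flagged were already known to stand apart, so the count is not comparable with that rate. For log10 rank at +38.0 kb the ratio was 0.912 for E2 replicate 1 among libraries given E2 and 0.887 for fulvestrant replicate 2 among libraries without E2. Fulvestrant replicate 2 had no peak there and was ranked last, so the 0.887 is not from a measured rank. At +70.7 kb the ratio was 0.843 for E2 replicate 1 and 0.725 for fulvestrant replicate 2. These are the libraries with relative depths of 39.1% and 75.8%, and the part of depth in their ranks was not tested.

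Fulvestrant went with fewer fragments at +38.0 kb when E2 was present (E2 plus fulvestrant over E2, 0.817) and with more when it was absent (fulvestrant over vehicle, 1.42). The site was flagged because by fragments the groups did not overlap in either comparison without E2 replicate 1 and fulvestrant replicate 2. That lack of overlap is the rule itself and no support. Only 2 sites had a peak in all 10 other libraries, and at +70.7 kb fulvestrant over vehicle was 1.04, with overlap. By rank at +38.0 kb, E2 (15 and 8) and E2 plus fulvestrant (16, 14 and 13) overlapped. By fold, E2 over E2 plus fulvestrant was 1.11 and those groups overlapped. The difference between these effects was not tested.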

How the results depend on the processing

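Of 252 recomputed rank differences at the recurrent sites, 4 changed sign and none passed the adjusted exact permutation test (smallest adjusted p 0.0936). At all these sites but +38.0, +70.7 and +91.9 kb, the 3-library filter favoured a positive difference in advance. The small number of sign changes is therefore no support. The +160.8 kb site reversed to -0.0393 with summit windows merged, -0.0125 without E2 replicate 2 and -0.0122 without E2 plus fulvestrant replicate 3, and the +38.0 kb site to -0.161 without fulvestrant replicate 2. With 1 library left out, the +38.0 kb difference ranged from -0.161 to 0.967, the +70.7 kb difference from 0.0683 to 0.914 and the +160.8 kb difference from -0.0125 to 0.119. The causes were not tested beyond that library having no peak at +38.0 kb. The number of sites separated by E2 was 0, with a range of 0 to 4 when 1 library was left out (4 without E2 replicate 1) and 4 without both unusual libraries. Leaving out both, a choice made after seeing the data, gave 8 sites for E2 above vehicle (25.1% of all regions), 3 for E2 above E2 plus fulvestrant (15.0% of regions) and 1 for fulvestrant above vehicle (8.72% of regions). The difference in mean peak number, 10.8, became 7.50 with 50 kb flanks, 5.17 with 10 kb flanks and 8.67 without repeat-masked peaks, and 10.3 to 11.3 when 1 library was left out. Sites with an ERE fell from 4 to 0 when no mismatch was allowed.

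Whether replicate numbers pair the libraries was not tested. The 18 same-number pairs correlated at -0.507 to 0.372 (mean 0.0297), 6 of them above 0.1. The 36 different-number pairs correlated at -0.516 to 0.644 (mean -0.0119), also with 6 above 0.1. Of the 12 libraries, 7 correlated best with their own number. With the replicate number as a block, 0 sites were separated and the exact permutation p was 0.509 at both +38.0 kb and +70.7 kb. Weak sites rest on 10 to 20 fragments, so depth limits what their absence from a list can show.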
